A study of Mus musculus with 2 samples.

Results

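The blood and lymphatic endothelial markers described here are 10 genes chosen by symbol, Pecam1, Cdh5, Tek, Tie1, Vwf, Cldn5, Egfl7, Emcn, Prox1 and Lyve1, out of 43346 mouse genes in the tables. All 10 were found by symbol, and each had a whole number of expected counts in both libraries (within 0.005), so no sign of reads split with a near-identical gene was seen. The data are polyadenylated RNA sequencing of adipose tissue from C57BL/6J mice, male, adult and aged 10 weeks, with no treatment named. The tissue gave 1 biosample and 2 technical libraries, here library 1 and library 2, and the labels add that the second was made later and was no part of the study's first publication. There is therefore 1 group and no condition, the spread between the libraries is technical, and library and date cannot be told apart. The labels do not name the fat depot or say whether tissue was pooled from several animals.

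Endothelial cells line blood and lymph vessels and hold together through adherens junctions built on VE-cadherin (Cdh5) and tight junctions built on claudins (Cldn5). The receptor tyrosine kinase Tek binds the angiopoietins and, with its relative Tie1, governs vessel stability, while the transcription factor Prox1 sets lymphatic identity. In fat, a dense capillary bed delivers fatty acids to adipocytes, and lymphatic vessels drain the tissue.

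The members differ widely in base composition, and the values below follow it, so the coding starts of the member with the lowest GC content (Emcn), a member beside the middle (Pecam1, nearest to the median of all tested genes, 49.7%) and the member with the highest (Cldn5) are shown. Each line holds the first 120 coding bases of the transcript with the highest mean level, 5′ to 3′ on the coding strand, with G and C in capitals, from the GENCODE M21 transcripts of the mm10 assembly.
Emcn: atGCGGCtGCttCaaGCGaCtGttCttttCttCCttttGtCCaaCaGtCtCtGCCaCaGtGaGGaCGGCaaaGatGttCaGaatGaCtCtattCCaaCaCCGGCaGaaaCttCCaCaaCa
Pecam1: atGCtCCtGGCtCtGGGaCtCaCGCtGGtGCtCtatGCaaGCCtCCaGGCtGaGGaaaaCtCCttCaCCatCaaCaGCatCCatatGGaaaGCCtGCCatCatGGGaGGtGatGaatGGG
Cldn5: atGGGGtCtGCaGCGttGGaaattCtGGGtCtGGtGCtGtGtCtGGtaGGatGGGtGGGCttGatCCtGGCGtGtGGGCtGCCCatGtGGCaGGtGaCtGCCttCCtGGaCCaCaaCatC
The Emcn stretch is spliced from chr3:137341240-137372774 on the plus strand and has 47.5% GC, within a coding sequence of 747 bases and 45.1% GC. The Pecam1 stretch is spliced from chr11:106699827-106715052 on the minus strand and has 54.2% GC, within 2094 coding bases of 50.5% GC. The Cldn5 stretch lies in the gene's single exon at chr16:18776996-18777115 on the plus strand and has 59.2% GC, within 657 coding bases of 63.8% GC.

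The libraries held 19954869 and 19256807 expected counts, of which the members took 5258 and 10981. Mitochondrial genes and their copies outside the mitochondrial genome took 51.7% of all TPM in library 1 and 15.9% in library 2, which lowers every other TPM in library 1. Adipocyte markers were present: all 12 of the list reached 1 TPM (transcript abundance corrected for length and scaled to one fixed sum in each library) in both libraries, with Cfd at 69.3 and 4561 TPM and Adipoq at 656 and 1486 TPM. All 10 epididymal markers were present too, with median levels of 2712 and 3584 TPM. RNA of epididymal genes thus stood beside that of fat genes, and vessels of the 2 tissues cannot be told apart here. In bulk tissue, fewer cells of a type and less RNA per cell cannot be told apart.

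Endothelial RNA was detected in both libraries. At 1 TPM or more in both were 9 of the 10 members, and the exception, Prox1, stood at 0.92 and 0.51 TPM on 122 and 53 expected counts. Their median levels were 11.2 and 22.8 TPM in libraries 1 and 2, and they summed to 128 and 352 TPM. Rescaled without mitochondrial genes and their copies, the sums were 265 and 418 TPM. Higher TPM in library 2 was seen for 8 members, and for 6 of them after that rescaling. At 10 TPM or more stood 5 members in library 1 and 9 in library 2. The reads carry no molecular identifiers, so every interval here covers counting error only.

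The order of the members changed between the libraries. In library 1, levels in TPM ran from Emcn through Pecam1, Lyve1, Cdh5, Egfl7, Tek, Vwf, Tie1 and Cldn5 to Prox1, and the highest was 43.6-fold above the lowest. In library 2 they ran from Egfl7 through Cdh5, Pecam1, Cldn5, Emcn, Lyve1, Vwf, Tie1 and Tek to Prox1, a range of 188-fold. In library 1 the 95% counting intervals of neighbours overlapped for Cdh5 and Egfl7, Tie1 and Cldn5, and Cldn5 and Prox1, 3 of 9 pairs. In library 2 they overlapped for Cdh5 and Pecam1, Emcn and Lyve1, and Lyve1 and Vwf, again 3 of 9. As a description of 10 genes measured in both libraries of 1 biosample, Spearman's rho of the TPM between the libraries was 0.515. Vwf at rank 7, Tie1 at rank 8 and Prox1 at rank 10 kept their places, and the other 7 members changed theirs.

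**Figure D1:**
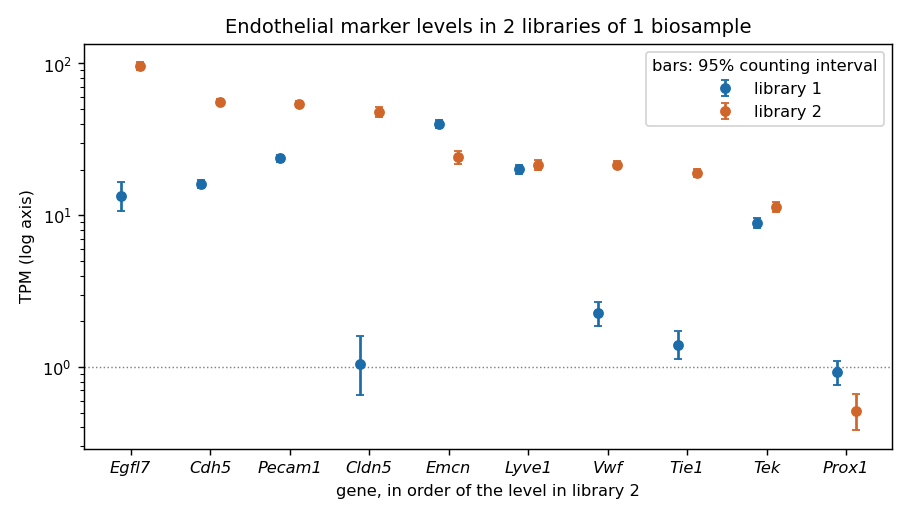
Level of each member in TPM (log axis) in library 1 (blue) and library 2 (orange), in order of the level in library 2, with 95% exact counting intervals as bars and 1 TPM as the dotted line. Cldn5 moves from 1.05 to 47.9 TPM while Lyve1 is at 20.1 and 21.6 TPM, and Prox1 lies lowest in both.

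To ask which members differed between the libraries by more than counting error, expected counts were compared by an exact binomial test with TMM scaling, and p-values were adjusted by Benjamini-Hochberg over 18261 genes. A gene was called where its adjusted p was below 0.05 and its levels differed at least 2-fold. This compares 2 libraries and not conditions, and has no replicate check. Of the 10 members, 5 were called higher in library 2 (Cdh5, Tie1, Vwf, Cldn5 and Egfl7), where 30.2% of all tested genes were. Another 2 were called lower (Emcn and Prox1), where 18.6% of all tested genes were. Pecam1, Tek and Lyve1 did not reach 2-fold. Together 48.8% of all tested genes were called, so calls are the common case in these libraries. The members' median log2 ratio of library 2 over library 1 was 0.75, and that of all tested genes was 0.02. Scaling to total counts moves every log2 ratio up by 0.44, and the split over all genes from 5514 higher and 3405 lower to 6817 and 1197, with 37.3% of tested genes called higher, 6.55% lower and 43.9% in either direction. The members' calls were the same under it, but Tek changed sign, from -0.38 to 0.06.

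Among the junction and adhesion genes, the claudin stood far apart from the other members. Cldn5 (ENSMUSG00000041378, chr16:18776847-18778262, plus strand), the main claudin of endothelial tight junctions, was at 1.05 TPM on 22 counts in library 1, against 47.9 TPM on 789 counts in library 2. Its mean was 24.5 ± 33.1 TPM (SD, n = 2 technical libraries), and in library 1 it lay above 42.5% of protein-coding genes against 86.9% in library 2. The log2 ratio was 4.75 (95% exact interval 4.17 to 5.46), a 26.8-fold difference, the largest of the 10 members (adjusted exact binomial p = 2.3e-159). Cdh5 (ENSMUSG00000031871, chr8:104101625-104144511, plus strand), the cadherin of the endothelial adherens junction, was at 16.1 and 55.9 TPM on 1047 and 2846 counts, a mean of 36.0 ± 28.2 TPM. Its log2 ratio of 1.06 (0.95 to 1.16) lay just past 2-fold, at 2.08-fold (adjusted exact binomial p = 4.61e-99).

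Pecam1 (ENSMUSG00000020717, chr11:106654217-106750628, minus strand) encodes an adhesion receptor at endothelial cell contacts that is also carried by platelets and leukocytes. It was at 23.7 and 54.2 TPM on 1233 and 2186 counts, a mean of 39.0 ± 21.6 TPM. The log2 ratio was 0.44 (0.34 to 0.54), under 2-fold but beyond counting error (adjusted exact binomial p = 1.31e-17). In TPM, Pecam1 stood 1.47-fold above Cdh5 in library 1 and at 0.969 of it in library 2, where their intervals overlapped.

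The paired Tie receptors changed places. Tek (ENSMUSG00000006386, chr4:94739289-94874976, plus strand), the angiopoietin receptor Tie2, was at 8.92 and 11.4 TPM on 666 and 668 counts, and its mean of 10.1 ± 1.72 TPM had a small spread. Rescaled without mitochondrial genes and their copies, Tek was at 18.5 and 13.5 TPM. Its log2 ratio was -0.38 (-0.54 to -0.23), which is negative although the TPM is higher in library 2, since TMM and TPM scale the libraries differently. Tie1 (ENSMUSG00000033191, chr4:118471191-118490061, minus strand), the related receptor that pairs with it, was at 1.40 and 19.0 TPM on 93 and 975 counts. Its mean was 10.2 ± 12.5 TPM, close to that of Tek, with a log2 ratio of 2.996 (2.69 to 3.33, adjusted exact binomial p = 6.2e-138). The TPM of Tie1 over that of Tek was 0.157 in library 1 and 1.67 in library 2, so which receptor leads depends on the library.

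Both secreted products were higher in library 2. Vwf (ENSMUSG00000001930, chr6:125546774-125686679, plus strand), the platelet-binding glycoprotein that endothelial cells store and release, was at 2.26 and 21.6 TPM on 121 and 1269 counts, a mean of 11.9 ± 13.7 TPM. Its log2 ratio was 2.998 (2.73 to 3.28), or 7.99-fold (adjusted exact binomial p = 3.67e-179). Egfl7 (ENSMUSG00000026921, chr2:26580014-26593120, plus strand), a secreted factor of growing vessels, was at 13.4 and 95.7 TPM on 88 and 1037 counts, a mean of 54.5 ± 58.2 TPM. In library 1, Tie1 had 1.40 TPM on 93 counts, with a length of 4070 bases. Egfl7 had a length of 571 bases in library 1 and 994 in library 2, set by its transcript shares, so its TPM and rank rest on them. It was the highest member in library 2, above 93.9% of protein-coding genes, with a log2 ratio of 3.16 (2.86 to 3.50, adjusted exact binomial p = 2.36e-154).

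Egfl7 shares bases with 3 annotated genes. Agpat2, an enzyme of triglyceride synthesis on the opposite strand, was at 11.9 and 132 TPM. The use of strand in the counting is not given in the sources used here, so reads of both genes may not be told apart where they overlap. The counts of Egfl7 were whole in both libraries (88 and 1037), and a part of Agpat2 reads in them was not tested. Mir126a, the microRNA in an Egfl7 intron, and Gm20532 were both listed at 0. Prox1 overlaps Prox1os and Gm28172 on the opposite strand, both listed at 0 in each library.

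Emcn went the other way. Emcn (ENSMUSG00000054690, chr3:137341067-137432185, plus strand), a sialomucin of capillary and venous endothelium, was the highest member in library 1 at 40.1 TPM on 1034 counts, above 90.8% of protein-coding genes. In library 2 it was at 24.0 TPM on 458 counts, above 75.4%, and its mean was 32.1 ± 11.4 TPM. The log2 ratio was -1.56 (-1.72 to -1.40), or 2.95-fold lower in library 2 (adjusted exact binomial p = 3.42e-90).

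The lymphatic members lay far apart from each other in level. Lyve1 (ENSMUSG00000030787, chr7:110850607-110863239, minus strand), a hyaluronan receptor of lymphatic endothelium that some tissue macrophages also carry, was at 20.1 and 21.6 TPM on 832 and 700 counts. Its mean of 20.8 ± 1.05 TPM had the smallest spread relative to its level of all members in the deposited TPM. Rescaled without mitochondrial genes and their copies, Lyve1 was at 41.6 and 25.7 TPM, so that small spread depends on the scaling. Its log2 ratio was -0.64 (-0.78 to -0.49, adjusted exact binomial p = 1.64e-17), under 2-fold. Prox1 (ENSMUSG00000010175, chr1:190118035-190170714, minus strand), the homeobox factor of lymphatic identity, was at 0.92 TPM (0.764 to 1.10) and 0.51 TPM (0.382 to 0.667), a mean of 0.715 ± 0.29 TPM. It lay above 41.2% and 28.6% of protein-coding genes, with a log2 ratio of -1.58 (-2.08 to -1.11, adjusted exact binomial p = 4.61e-12), or 2.99-fold lower in library 2. Per length, Lyve1 stood 21.8-fold above Prox1 in library 1 and 42.3-fold in library 2, and Pecam1 25.8-fold and 106-fold above it.

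The ratios followed GC content. Across the 10 members, the log2 ratio and the GC content of the annotated transcripts correlated with r = 0.949 (Pearson) and rho = 0.891 (Spearman), a description of genes that share both libraries. Over 18133 tested genes with a GC value the rho was 0.859. Emcn, with the lowest GC content of the members at 42.2%, was called lower, and Cldn5, Tie1, Egfl7, Vwf and Cdh5, the 5 with the highest GC content, were the 5 called higher. Between them, Lyve1 at 47.0%, Tek at 47.2% and Pecam1 at 49.8% were not called, while Prox1 at 48.6% was called lower. Set against tested genes of like GC content, 7 members lay inside the 25th to 75th percentile of their bin. Outside it were Vwf, above a bin with a median of 1.36, Prox1, below a median of -0.24, and Emcn, below a median of -1.17.

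**Figure D2:**
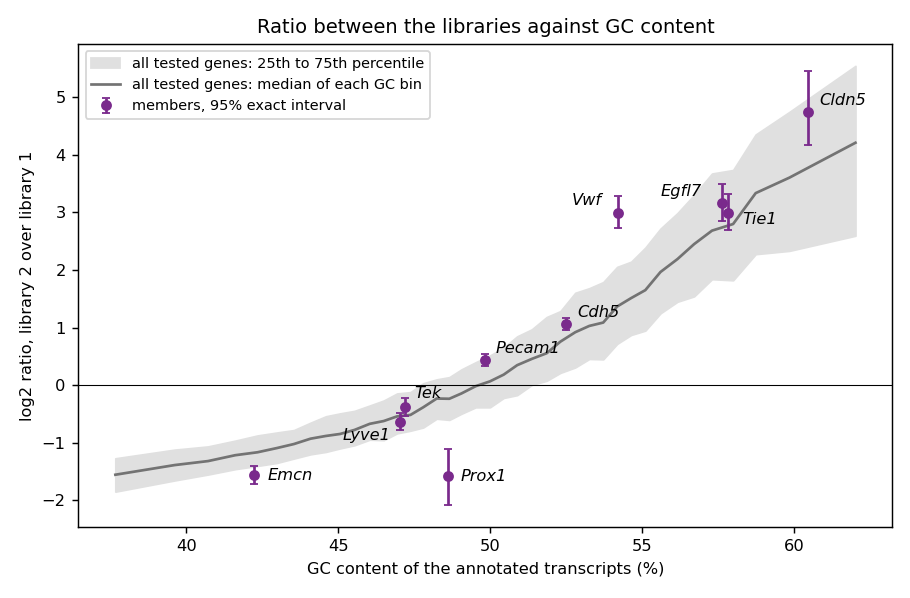
Log2 ratio of library 2 over library 1 against the GC content of each member's annotated transcripts (purple points, 95% exact intervals), with the median (line) and the 25th to 75th percentile (band) of all tested genes in 40 GC bins. Vwf lies above the band, Prox1 and Emcn lie below it, and the other 7 members lie within it.

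With the GC trend of all genes removed, few differences of 2-fold were left. The median of the bin was taken out of each ratio, and the same exact test was run again. Then 2 members were called higher, Vwf at 1.63 (adjusted exact binomial p = 8.75e-43) and Cldn5 at 1.14 (p = 8.09e-05), with 9.65% of tested genes called higher, and 1 lower, Prox1 at -1.34 (p = 1.35e-08), with 8.41% called lower and 18.1% in either direction. These shares cover genes of all GC contents. As measured, Cldn5 at 4.7457 lay inside the 25th to 75th percentile of its own bin (2.3333 to 4.7483), so its call is not unusual for its GC content. Tie1 went from 2.996 to 0.20, Egfl7 from 3.16 to 0.48, Cdh5 from 1.06 to 0.30 and Emcn from -1.56 to -0.39. Pecam1 stood at 0.38, Tek at 0.14 and Lyve1 at -0.09. The members' median was 0.25, and that of all genes 0.00.

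GC content over all annotated transcripts can miss the transcript that is expressed. Vwf and Prox1 show this: the Vwf transcript with the highest level has 56.4% GC against 54.2% over all, and that of Prox1, with 7913 bases the longest of its 3 forms, 45.3% against 48.6%. With the GC content of the leading transcript (an alternative chosen after seeing the data), r over the 10 members was 0.989 and rho 0.976, and the rho over 18100 tested genes was 0.864. Removal of this trend left 1 member called, Cldn5 at 1.00 (adjusted exact binomial p = 8.68e-04), where 9.09% of tested genes were called higher, 7.91% lower and 17% in either direction. Cldn5, at 1.0013 on 22 counts in library 1, lay on the 2-fold limit itself, so its call is a marginal one. Vwf went to 0.78 and Prox1 to -0.84, both under 2-fold, while Emcn went to -0.82. Emcn thus lay further from 0 than the -0.39 under the first removal, and its leading transcript has 45.1% GC against 42.2% over all.

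**Figure D3:**
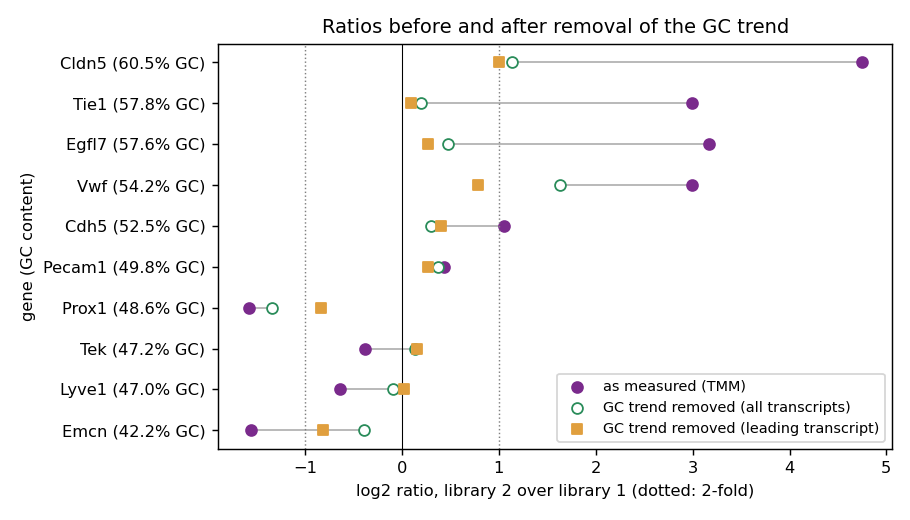
Log2 ratio of each member as measured (purple), with the GC trend over all annotated transcripts removed (open green) and with the GC trend of the leading transcript removed (orange squares), members in order of GC content and 2-fold as dotted lines. Cldn5, Tie1 and Egfl7 move most, and under the second removal Cldn5 at 1.00 is the one member at 2-fold.

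Transcript shares also differed between the libraries for some members. Cdh5, Cldn5 and Lyve1 have 1 annotated transcript each, and of the other 7 members, 5 had the same leading transcript in both libraries and 2, Tie1 and Egfl7, had another. For Tie1, the full transcript Tie1-201 took 6.27% of the gene's TPM in library 1 and 85.9% in library 2. Tie1-203, which keeps an intron of 460 bases (chr4:118479153-118479612), took 82.6% and 7.22%. In expected counts, Tie1-201 went from 5.86 to 854, while Tie1-203 had 80.0 in library 1 and 74.4 in library 2. The kept intron has 53.7% GC, and the exons beside it 62.4%. The change of leader thus came with counts for Tie1-201 and not for Tie1-203, and on 93 counts the shares in library 1 are thinly based.

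By share of TPM, Vwf was led by a short form in both libraries. Vwf-210, a transcript of 2686 bases from the 3′ part of the gene that is annotated as a target of nonsense-mediated decay, took 68.0% of the TPM in library 1 and 51.7% in library 2. A transcript of 8817 bases (ENSMUST00000001995, not in the M21 annotation) took 8.54% and 34.8%, which was 28.5 and 866 expected counts. By counts it therefore led in library 2, ahead of the 373 counts of Vwf-210. By posterior means, the mean share of Vwf-210 was 47.4% in place of 59.9%. In library 2 the posterior mean share of the transcript of 8817 bases was 17.1%. That of Vwf-203, a protein-coding transcript of 8834 bases and 52 exons, was 14.8%.

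The remaining members had the same leading transcript in both libraries. Tek-203 led Tek with 51.3% and 74.8%, while Tek-202 had 35.3% and 13.1%, and Emcn-201 led Emcn with 73.4% and 80.5%. Pecam1 was spread over 4 long protein-coding forms, of which Pecam1-203 had 56.4% in library 1 and 46.03% in library 2. Prox1-202 held all of the TPM of Prox1 in both libraries, or 94.14% and 84.98% by posterior means.

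**Figure D4:**
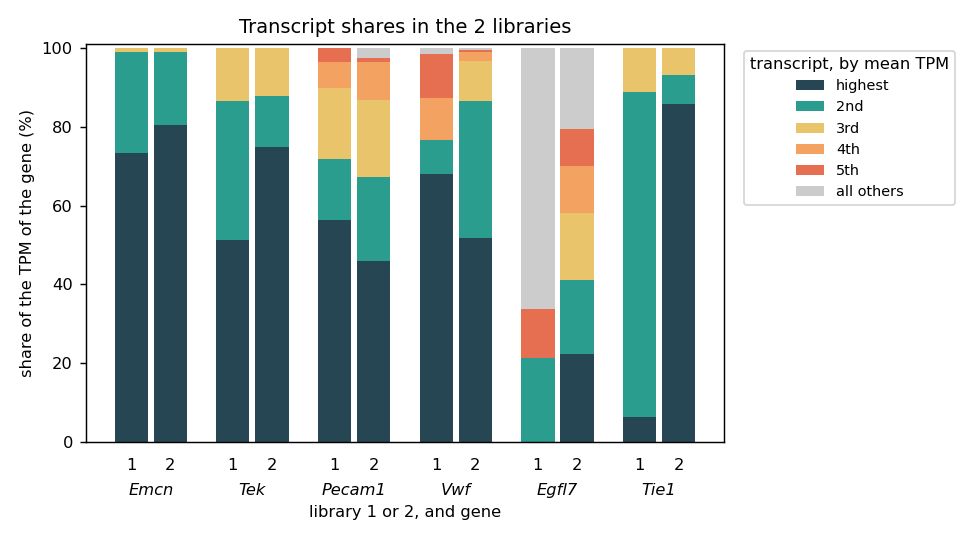
Share of each gene's TPM (%) in its transcripts, ranked by mean TPM, in library 1 and library 2, for 6 members with several transcripts above 0. The darkest part of the Tie1 bars, Tie1-201, goes from 6.27% to 85.9%, and the Egfl7 bars show that its highest transcript is not seen in library 1.

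Egfl7 was spread over 19 annotated transcripts, of which 7 were above 0 in library 1 and 14 in library 2. In library 1 the leader was Egfl7-207, a processed transcript of 369 bases with 44.7% of the TPM. In library 2 it was Egfl7-202, a protein-coding transcript with 22.3%, which had 0 counts in library 1. RefSeq places 3 starts in the gene. At the start at 26581083 on chromosome 2, transcripts within 100 bases had 0 and 3.41 TPM in libraries 1 and 2. At the start at 26583865, where Egfl7-201, Egfl7-202 and Egfl7-204 begin, they had 0.5 and 27.7 TPM, on 14.4 and 444 expected counts. At the start at 26586636 they had 6.72 and 13.6 TPM, on 22.5 and 157 expected counts. Of these, Egfl7-207, with 369 bases, gave 5.98 TPM on 18.7 counts in library 1. In TPM, the start at 26583865 thus had the most of the 3 in library 2 and the one at 26586636 in library 1. The lead in library 1 rests on few counts, 22.5 against 14.4. Another 11 transcripts that begin elsewhere held 6.15 and 50.99 TPM. The 250 bases before the start at 26583865 (chr2:26583615-26583864, plus strand, RefSeq on GRCm38.p6, which is mm10) are shown, as that start led in library 2, with the ETS core in capitals.
Egfl7 upstream: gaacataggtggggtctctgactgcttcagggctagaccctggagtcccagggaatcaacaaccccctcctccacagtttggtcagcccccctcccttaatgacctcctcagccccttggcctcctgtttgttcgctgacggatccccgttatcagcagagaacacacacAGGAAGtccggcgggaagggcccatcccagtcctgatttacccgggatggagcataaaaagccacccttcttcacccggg
ETS factors are known regulators of endothelial genes, and their core was searched as AGGAAG or CGGAAG on both strands. This stretch has 58.4% GC and 1 core, whose first base lies at -80 from the start.

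Of the members, 6 had a RefSeq promoter window of 300 bases (Prox1, Egfl7, Emcn, Tek, Tie1 and Cldn5, 9 windows in all). AGGAAG, on either strand, was in 4 of the 9 windows (of Egfl7, Emcn and Tie1) and in 35.4% of all 32851 windows. CGGAAG was in 1 window, of Tie1, and in 16.9% of all. The GC box GGGCGG was in 4 windows, of Cldn5, Egfl7 and Prox1 (35.7% of all). In 1 window each were the E-box CAGCTG, of Egfl7 (16.3%), the GATA motif AGATAA, of Tek (11.2%), and TATAAA, of Prox1 (13.6%). ACAATG, a SOX core, was in none of the members' windows and in 12.6% of all. A match is a description of letters and not a site.

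Other genes listed for the endothelium were also detected, and whether their RNA came from endothelial cells was not tested. Counts of calls below are to be read against the 30.2% higher and 18.6% lower of all tested genes, or 9.65% and 8.41% with the GC trend removed. Under total counts, lower calls in the 16 lists were 0 except for 1 each in the angiopoietin and Tie, the pericyte and smooth muscle and the epididymal lists. Of 20 further pan-endothelial genes, 19 reached 1 TPM in both libraries, with medians of 5.11 and 15.3 TPM and sums of 188 and 398 TPM. Of them 8 were called higher and 3 lower, or 9 and 0 under total counts, with a median log2 ratio of -0.20. With the GC trend removed, 1 was higher and 1 lower. Tinagl1, a matrix protein, was at 6.21 and 80.0 TPM. S1pr1, the receptor for sphingosine 1-phosphate, was at 35.5 and 30.1 TPM, and Esam, an adhesion molecule, at 7.41 and 45.0 TPM.

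The list of the angiopoietin and Tie pathway includes 2 of the members, Tek and Tie1. Of its 10 genes, 9 reached 1 TPM in both libraries, and 3, Tie1 among them, were called higher and 1 lower. Ptprb, the phosphatase that acts on Tek, was at 13.1 and 15.6 TPM. Foxo1, the transcription factor that Tek signalling holds in check, was at 13.8 and 12.6 TPM, and the adaptor Grb14 at 20.6 and 9.95 TPM. The TMM log2 ratios of all 3 were under 2-fold, with Grb14 at -0.80. With the GC trend removed, 1 gene of the pathway was higher and 0 lower. Of 15 junction genes, 4 were called higher and 1 lower, and with the GC trend removed 2 and 1. The 3 of highest level, none of them called, were the catenins Ctnnb1 (119 and 241 TPM) and Ctnnd1 (89.7 and 75.2 TPM), which bind Cdh5, and the junction scaffold Afdn (51.2 and 70.5 TPM). Of 16 transcription factors of endothelium, 4 were called higher and 3 lower, and with the GC trend removed 1 and 6. Nr2f2, a factor of venous and lymphatic fate, was at 30.3 and 25.1 TPM, and the flow-responsive Klf4 and Klf2 at 18.7 and 24.6 TPM and at 6.73 and 26.2 TPM.

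Genes listed for vessel types beyond the members were detected in part. At 1 TPM or more in both libraries were 10 of 12 arterial, 8 of 9 venous and all 12 fat capillary genes. Those named have the highest levels of their list, and whether their RNA came from these vessels was not tested. Of 15 lymphatic genes, 12 reached 1 TPM in both libraries, with medians of 3.60 and 9.44 TPM and sums of 113 and 272 TPM. Of these 15, 5 were called higher and 2 lower, and with the GC trend removed 2 and 3. Ccl21a, a chemokine of lymphatic endothelium, was at 3.31 and 96.1 TPM, with a log2 ratio of 4.09 and, with the GC trend removed, 2.13. Its counts were not whole in either library, so it may share reads and is uncertain. Pdpn, a membrane protein of lymphatic endothelium and of other stromal cells, was at 30.2 and 44.0 TPM. Of 12 arterial genes, 4 were called higher and 0 lower, and with the GC trend removed 2 and 3. Cxcl12 was highest at 50.6 and 70.9 TPM, then Efnb2 at 12.2 and 13.3 TPM and Fbln5 at 6.94 and 15.1 TPM. Of 9 venous genes, 3 were called higher and 1 lower, and with the GC trend removed 2 and 0, with Lrg1 at 1.00 and 140 TPM and Vcam1 at 9.76 and 8.30 TPM. Of 12 genes of fat capillaries, 4 were called higher and 3 lower, and with the GC trend removed 1 and 2. The highest, Fabp4 (4072 and 6105 TPM), Lpl (1690 and 1422 TPM) and Cd36 (939 and 682 TPM), are adipocyte genes as well.

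VEGF ligands and receptors all reached 1 TPM in both libraries (10 of 10 matched), with Vegfa at 33.4 and 172 TPM, Nrp1 at 35.8 and 34.4 TPM and Vegfb at 14.0 and 50.3 TPM. Of them 3 were called higher and 0 lower, and with the GC trend removed 0 and 3. Of 12 pericyte and smooth muscle genes, the mural partners of endothelium, 8 were called higher and 1 lower, and with the GC trend removed 3 and 1. Their median log2 ratio was 1.71, and 0.50 with the trend removed. The highest by level were Acta2 at 79.6 and 391 TPM, Rgs5 at 123 and 67.3 TPM and Tagln at 25.03 and 152 TPM.

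Some members are carried by other cells, whose markers moved with the libraries as well. For Lyve1, all 15 macrophage markers reached 1 TPM in both libraries, and their sums were 365 and 1131 TPM. Of them 8 were called higher and 1 lower, and with the GC trend removed 1 and 1. Lyz2, whose counts were not whole and which may share reads, was at 173 and 448 TPM, C1qa at 17.1 and 123 TPM and C1qb at 10.5 and 120.2 TPM. Lyve1 itself stood at 20.1 and 21.6 TPM in the same libraries. Its GC content was 47.0%, against a median of 52.5% for the macrophage list. Since the ratios followed GC content, these levels cannot tell the part of macrophages in Lyve1, which was not tested. For Vwf and Pecam1, platelet markers summed to 6.51 and 74.97 TPM. Of 14, 2 reached 1 TPM in both libraries, 11 were below it in both and Gp6, the platelet collagen receptor, was at 0 in both. Pf4, at 3.96 and 54.3 TPM, and Itga2b, at 0.28 and 15.6 TPM, made up most of that sum, were both called higher, and were so with the GC trend removed, at 2.84 and 1.72. Of the 6 platelet markers tested, those 2 were called higher and 0 lower, and with the trend removed 2 and 1. The third, Itgb3, was at 1.01 and 2.44 TPM. The part of platelets in the values of Vwf and Pecam1 was not tested.

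Of 10 leukocyte markers, 8 reached 1 TPM in both libraries, and they summed to 2237 and 3583 TPM, nearly all of it Cd52 at 2155 and 3330 TPM, a gene that the epididymis also expresses. Tyrobp was at 7.60 and 91.8 TPM and Fcer1g at 33.8 and 49.4 TPM. Of the list 4 were called higher and 1 lower, and with the GC trend removed 1 and 1, and its part in Pecam1 was not tested. For Prox1, which hepatocytes also express, 5 of 8 hepatocyte markers were below 1 TPM in both libraries. Alb was at 2.05 and 3.30 TPM and Hnf4a at 2.24 and 4.87 TPM, while Trf, which other tissues express too and whose counts were not whole, was at 945 and 1281 TPM.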

How the data were processed

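Per the labels, polyadenylated RNA of 1 adipose biosample was sequenced in 2 technical libraries, with RNA from a lipid tissue kit. A deposited text gives mm10 and M4 as assembly and annotation. The aligner and the counter are not named in the sources used here. Per the file headers, the authors deposited expected counts, TPM and FPKM for genes and transcripts. Each transcript's share of its gene's TPM is a deposited percent. Deposited interval bounds of TPM, a signal-like value, were not used.

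Symbols came from GENCODE M21 (42462 of 43346 identifiers matched). Entries without a mouse gene identifier held 0 and 2 counts and were left out. Expected counts were rounded, and genes with at least 10 in sum (18261) entered an exact two-sided binomial test with TMM sizes (edgeR 4.0.16, R 4.3.3, scipy 1.17.1) and Benjamini-Hochberg adjustment. For log2 ratios 0.5 was added to counts. Exact 95% intervals are Clopper-Pearson for ratios and Poisson for levels. With 1 library a side, no residual degrees of freedom are left. The GC trend was the median ratio of 40 bins. The test was tested on simulated data. Alternatives included DESeq2 1.42.0 size factors, total counts and edgeR's exact test at dispersion 0.01.

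The members and the 16 lists were chosen with earlier results of these data known. Named are all members, the 3 genes of highest mean TPM in each list, and any platelet, macrophage or lymphatic marker at 0 in both libraries. Of the epididymal list these are Gpx5 (14177 and 15610 TPM), Crisp1 (6982 and 4053 TPM) and Lcn5 (2402 and 7167 TPM), and of the adipocyte list Cfd, Adipoq and Cidec (148 and 954 TPM).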

Additional observations from a re-analysis of the deposited data

How the results depend on the processing

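All 10 members' ratios kept their direction and their side of 2-fold under DESeq2 size factors, posterior mean counts and 5 added to each count. They did so under edgeR's exact test at dispersion 0.01 too, and 9 did under total counts. The exception was Tek, at 0.0557, which also changed sign with the GC trend removed (0.14) and with that of the leading transcript removed (0.16). Lyve1 changed sign in the last of these alone (0.0167). Under edgeR's exact test, Pecam1 and Tek, both under 2-fold, no longer had an adjusted p below 0.05. Removal of the GC trend cut the members called higher from 5 to 2 and those called lower from 2 to 1, and with the leading transcript's GC content to 1 and 0. Over all genes these counts were 5514 and 3405, 1750 and 1525, and 1645 and 1432. The median TPM of the members, 22.7, was 31.6 without mitochondrial genes and their copies, and ran from 11.2 to 22.8 with 1 library left out. The members detected in both libraries, 9 at 1 TPM, were 10 at 0.5 TPM, 6 at 5 TPM and 10 at 10 counts. No paired analysis was possible because there is 1 group and its 2 libraries come from 1 biosample. Depth limits Cldn5 (22 counts), Egfl7 (88) and Tie1 (93) in library 1 and Prox1 (53) in library 2.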
